A study of Homo sapiens with 95 samples.

Results

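Structured noncoding RNAs that work as the RNA part of a ribonucleoprotein were described across a panel of perturbed airway cells. The list was chosen by gene name and holds 5 genes, RPPH1, RMRP, RN7SK, RN7SL1 and RN7SL2, with RPPH1 picked because it is among the genes with the most reads. Of these, 2 genes, RPPH1 and RMRP, are among the 27978 gene symbols counted, and both had reads in all 95 samples. RN7SK, RN7SL1 and RN7SL2 are not analysed here.

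The cells were AALE, an immortalized human bronchial epithelial line, and gene expression was measured by sparse full length (SFL) sequencing, a pooled method that removes ribosomal RNA and so keeps RNAs without a poly(A) tail. The 8 genotypes were CRISPR knockouts of FAT1 and of CDKN2A with their GFP control (the Cas9-EGFP plasmid PX458 without a guide), and overexpression of NRF2 (gene NFE2L2), FGFR1, NRG1 and PIK3CA with their HCRED control (an empty vector carrying that reporter). Each genotype received DMSO, the solvent control, or 24 μg/ml CSC (cigarette smoke condensate), 173 μM BaP (the polycyclic aromatic hydrocarbon benzo[a]pyrene) or 490 μM NNK (a tobacco-specific nitrosamine), with 3 samples for each combination except FGFR1 with CSC, which had 2. All groups therefore share the immortalized background, and every control also carries a vector. The sources used here do not say whether a line is 1 clone or how long the exposure lasted. Nor do they say whether the samples of a combination, described as biological replicates, came from separate cultures. The p-values therefore refer to these samples and not to other cultures or clones. The tests also draw on the variance of all genes, so an SE can be small beside the spread of 1 gene.

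RPPH1 is the RNA of RNase P, which cuts the leader from the front end of precursor tRNAs. RMRP is the RNA of RNase MRP, a related particle that shares most of its proteins with RNase P and acts in the processing of precursor ribosomal RNA. RN7SK is the scaffold that keeps the elongation factor P-TEFb inactive, and RN7SL1 and RN7SL2 encode the RNA of the signal recognition particle, which brings ribosomes to the endoplasmic reticulum. All are made by RNA polymerase III. RPPH1 and RMRP are transcribed from promoters that lie upstream of the gene and carry a TATA box, and their RNAs have no poly(A) tail.

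The RMRP gene lies on chromosome 9 (GRCh37, the build the authors aligned to) at chr9:35657751-35658014 on the minus strand, where GENCODE annotates a single exon of 264 bases with a GC content of 63.3%. The RNA is shown as annotated there, and the 250 bases upstream (chr9:35658015-35658264, minus strand) because its promoter lies there. Reads were counted in RefSeq genes, and whether the counted feature has the same ends was not checked. Capitals in the upstream sequence mark matches to TATAAA and to ATTTGCAT, the octamer letters, which were searched on both strands and do not overlap each other.
RMRP: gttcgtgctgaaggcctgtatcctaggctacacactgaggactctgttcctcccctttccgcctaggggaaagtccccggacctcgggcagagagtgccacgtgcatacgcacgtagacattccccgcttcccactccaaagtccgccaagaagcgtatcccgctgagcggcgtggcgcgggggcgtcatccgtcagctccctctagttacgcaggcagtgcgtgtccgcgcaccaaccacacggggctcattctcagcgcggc
RMRP upstream: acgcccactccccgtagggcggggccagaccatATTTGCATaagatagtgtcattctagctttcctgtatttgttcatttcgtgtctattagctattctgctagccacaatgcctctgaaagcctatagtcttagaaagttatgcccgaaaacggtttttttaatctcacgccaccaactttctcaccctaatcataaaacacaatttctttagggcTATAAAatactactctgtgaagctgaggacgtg
TATAAA had 1 match, 33 to 28 bases before the annotated start, and 10.7% of 35116 RefSeq promoter windows of the same length (250 bases before the start, GRCh38.p14) held these letters on either strand. ATTTGCAT had 1 match, 217 to 210 bases before the start, and 1.63% of the windows held it. A match is a description of the letters and not a bound site. CCDC107, a gene of the opposite strand, begins 272 bases upstream of RMRP and had a mean of 0.495 reads. RPPH1 lies on chromosome 14 beside PARP2, which had a mean of 58.7 reads, and its own sequence on this build was not used here.

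The 95 libraries held between 287446 and 2116383 counted reads (median 934235), and 9 of them held fewer than 500000. The targeted gene separated every sample of the line from every sample of its control in 6 of 6 lines, and CYP1A1 was higher in 23 of 23 CSC samples than in any DMSO sample. KRT5, KRT14, TP63 and the other airway epithelial markers checked had reads in all 95 samples. Of 12 leukocyte, fibroblast and endothelial markers, CD3E had no reads and 8 others averaged under 1 read. COL1A1 averaged 24.2 reads, CD14 2.62 (reads in 84 of 95 samples) and DCN 1.30 (56 of 95). The summed level of 5 fibroblast markers, mostly COL1A1, had a median of 16.8 CPM (reads scaled by the size of the library) with DMSO, 33.8 with CSC, 28.0 with BaP and 32.3 with NNK, and its part in the results was not tested.

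RPPH1 and RMRP were among the most heavily read features of the libraries, which for RPPH1 is what placed it on the list. Over all samples RPPH1 took 0.416% of counted reads and ranked 3 of all genes, after the mitochondrial ribosomal RNA RNR2 and AHNAK. It had 1203 to 12315 reads per sample, ranked 1 in 21 of 95 samples and never lower than 21. RMRP took 0.160% of counted reads and ranked 18, with 358 to 4263 reads per sample. These are reads and not levels per length, so they do not rank the RNAs by number of molecules. In bulk samples, fewer cells that hold an RNA and less of it per cell cannot be told apart.

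RPPH1 and RMRP were both higher with CSC than with DMSO, RMRP by the larger fold. On CPM scaled by the trimmed mean of M values (TMM), RPPH1 ranged from 1596 to 3671 over 24 DMSO samples (median 2794) and from 3354 to 6879 over 23 CSC samples (median 5456). Of the CSC samples 21 lay above the highest DMSO sample, and the remaining ones were CDKN2A knockouts, whose own DMSO samples were the lowest. RMRP ranged from 744 to 1386 CPM with DMSO (median 1006) and from 2051 to 3616 with CSC (median 2638), and the treatments did not overlap. Shares of all genes for such separation over all samples, or for counts above the highest DMSO sample, were not computed for any chemical. Within each of the 8 genotypes every CSC sample lay above every DMSO sample for both RNAs, which was so for 2.02% of all genes.

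In limma-voom with genotype as a covariate and Benjamini-Hochberg adjustment over 14497 genes, RPPH1 rose 1.99-fold with CSC (log2 fold change 0.99, SE 0.03, adjusted p = 1.59e-53). RMRP rose 2.62-fold (log2 fold change 1.39, SE 0.04, adjusted p = 1.94e-52), at place 58 of all genes ordered from the highest log2 fold change. Both members were called, against 55.6% of all genes in either direction and 27.2% higher at an adjusted p of 0.05, so a call alone was common. The median log2 fold change over all genes was -0.01. The fold within genotypes ran from 1.67 (NRF2) to 2.13 (PIK3CA) for RPPH1 and from 2.13 (FGFR1) to 2.87 (FAT1) for RMRP. Whether the CSC difference varied among genotypes was tested by an interaction term, which 1.28% of genes passed. RPPH1 (adjusted p = 0.162) and RMRP (adjusted p = 0.410) did not. Leaving out a replicate number can leave FGFR1 cells with CSC (n = 2) unreplicated, so this test is given for all samples only. With a correction for GC content and length, which could be run for RMRP only, its log2 fold change was 0.71, and with scaling to the summed reads of small nucleolar and Cajal body RNAs the values were 0.38 for RPPH1 and 0.80 for RMRP. That scaling moved the median of all genes to -0.60 (365 genes higher and 10852 lower, against 3943 and 4118 with TMM), and relative to it RPPH1 was at 0.99 and RMRP at 1.40. Such a scaling shifts all genes of a sample alike. Values relative to the median of all genes, here and below, therefore stay near those with TMM by construction and are no further check. Both calls held under these settings.

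**Figure D1:**
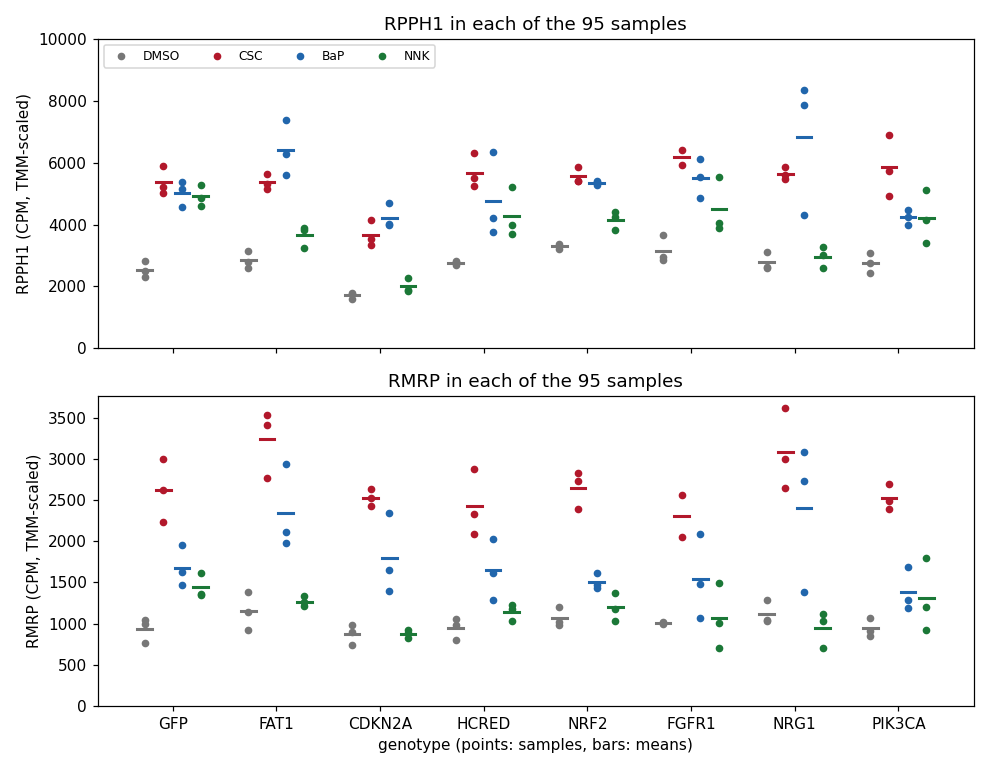
TMM-scaled CPM of RPPH1 (top) and RMRP (bottom) in each of the 95 samples by genotype, with points for samples, short bars for the means of a combination and colours for the treatment. In every genotype the CSC and BaP samples of both RNAs sit above the DMSO samples, and the RPPH1 levels of CDKN2A knockout cells with DMSO, 1596 to 1794 CPM, are the lowest.

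With BaP, both RNAs were again higher than with DMSO, this time RPPH1 by the larger fold. RPPH1 ranged from 3747 to 8354 CPM over 24 BaP samples (median 5215), and each of the 24 lay above the highest DMSO sample. RMRP ranged from 1066 to 3092 CPM (median 1623), with 20 of 24 samples above the highest DMSO sample. Within each of the 8 genotypes the BaP and DMSO samples did not overlap for either RNA, as for 0.925% of all genes.

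RPPH1 rose 1.87-fold with BaP (log2 fold change 0.90, SE 0.05, adjusted p = 2.69e-30, limma-voom). RMRP rose 1.65-fold (log2 fold change 0.72, SE 0.06, adjusted p = 8.59e-18). Of all genes, 51.4% were called and 26.4% were higher. With the GC and length correction the log2 fold change of RMRP was 0.20, and with scaling to small nucleolar and Cajal body RNAs the values were 0.56 for RPPH1 and 0.40 for RMRP, all still past the threshold. The median of all genes was then -0.36 (628 genes higher and 8050 lower, against 3794 and 3608), and relative to it RPPH1 was at 0.92 and RMRP at 0.76.

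The BaP difference of RPPH1 varied among genotypes by the interaction term (adjusted p = 0.0346), which 0.25% of genes passed, and that of RMRP did not pass (adjusted p = 0.910). The fold of RPPH1 was 2.44 in CDKN2A knockout cells, 2.31 in NRG1 cells and 2.17 in FAT1 knockout cells, and it was 1.54 in HCRED control cells and 1.56 in PIK3CA cells. The samples of 1 combination could lie far apart: RPPH1 in NRG1 cells with BaP was at 4304, 8354 and 7871 CPM. Without replicate 2 of every combination the interaction of RPPH1 was not past the threshold (adjusted p = 0.571), and without replicate 1 that of RMRP was (adjusted p = 0.0207).

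NNK gave the smallest differences of the 3 chemicals, and these depended on the genotype for RPPH1. RPPH1 ranged from 1842 to 5546 CPM over 24 NNK samples (median 3889), and 16 of them lay above the highest DMSO sample. RMRP ranged from 704 to 1799 CPM (median 1179), so most NNK samples lay within the DMSO range and 3 lay above it. Every NNK sample lay above every DMSO sample in 7 of 8 genotypes for RPPH1 and in 1 of 8 for RMRP. In each of the 8 this was so for 1.07% of all genes and for neither RNA. The shares of all genes reaching 7 of 8 or 1 of 8 were not computed, so those counts have no background.

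RPPH1 rose 1.40-fold with NNK over all genotypes (log2 fold change 0.48, SE 0.04, adjusted p = 1.56e-18, limma-voom). RMRP rose 1.14-fold (log2 fold change 0.19, SE 0.05, adjusted p = 0.00183), in a comparison in which 51.7% of all genes were called and 25.9% were higher. Ordered by log2 fold change from the highest, RMRP stood at place 4716 of 14387 genes. The direction of the RMRP value turned with the GC and length correction (log2 fold change -0.09, adjusted p = 0.074), and its call was lost in a fit of all 95 samples (log2 fold change 0.17, adjusted p = 0.0684).

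The NNK difference of RPPH1 varied among genotypes (interaction, adjusted p = 0.000218), in a test that 0.174% of genes passed and in which RPPH1 had the sixth smallest p. In GFP control cells RPPH1 was at 2306, 2810 and 2507 CPM with DMSO and at 4610, 4847 and 5284 CPM with NNK. All 3 NNK samples were higher, a separation whose share over all genes was not computed, and the fold was 1.89 (95% CI 1.66 to 2.15). In NRG1 cells RPPH1 was at 2631, 2605 and 3121 CPM with DMSO and at 3265, 2592 and 3029 CPM with NNK. These groups overlapped, with a fold of 1.06 (95% CI 0.931 to 1.20). In CDKN2A knockout cells RPPH1 was at 1753, 1794 and 1596 CPM with DMSO and at 2283, 1891 and 1842 CPM with NNK, a fold of 1.11 (95% CI 0.954 to 1.30). The other genotypes lay between, from 1.27-fold in NRF2 cells to 1.54-fold in FGFR1 cells.

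For RMRP the order was similar: the fold with NNK was 1.5 in GFP cells, 1.38 in PIK3CA cells, 1.0 in CDKN2A knockout cells and 0.829 in NRG1 cells. Its interaction did not pass in limma-voom (adjusted p = 0.234). It passed in edgeR's quasi-likelihood F test (adjusted p = 0.00331) and in limma-voom without replicate 1 (adjusted p = 0.000188). CSC, BaP and NNK were each compared with the same DMSO samples, so their values are not independent of one another.

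**Figure D2:**
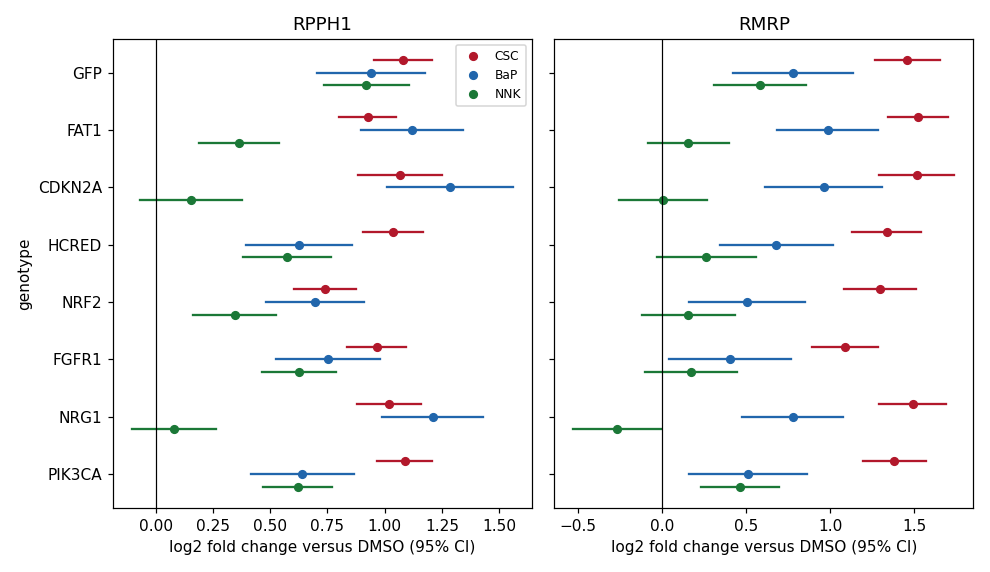
Log2 fold change of RPPH1 (left) and RMRP (right) against DMSO within each genotype, with points for the estimate, lines for the 95% confidence interval and colours for the chemical. The CSC value of RPPH1 runs from 0.74 in NRF2 cells to 1.09 in PIK3CA cells and that of RMRP from 1.09 in FGFR1 cells to 1.52 in FAT1 cells. The NNK value of RPPH1 runs from 0.08 in NRG1 cells to 0.92 in GFP cells.

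The number of RPPH1 reads for each RMRP read, a ratio within a sample that no scaling between samples can change, shows how the RNAs moved against each other. It ranged from 1.77 to 3.67 with DMSO (median 2.78) and from 1.27 to 2.89 with CSC (median 2.07). With BaP it ranged from 2.0 to 4.55 (median 3.08) and with NNK from 2.06 to 5.48 (median 3.40). The treatments overlapped, with the CSC samples lowest by median and the NNK samples highest. By genotype the lowest median was 2.03 in CDKN2A knockout cells and the highest 3.67 in FGFR1 cells. The ratio is given as a description with no test.

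**Figure D3:**
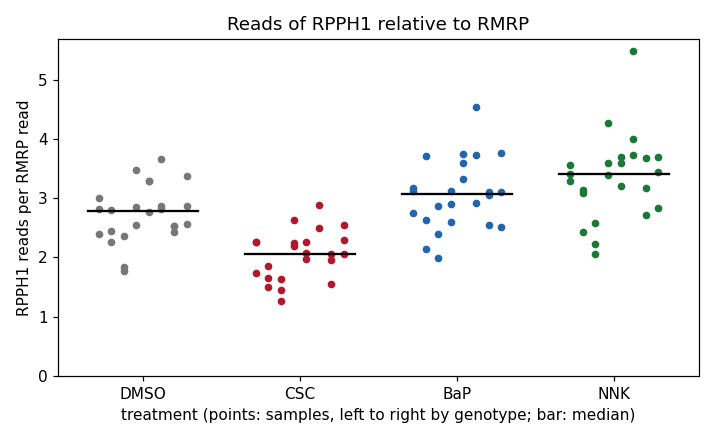
Reads of RPPH1 per read of RMRP in each of the 95 samples by treatment, with a bar at the median. The median is 2.78 with DMSO, 2.07 with CSC, 3.08 with BaP and 3.40 with NNK, and all the treatments overlap.

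The levels of the RNAs were also set side by side sample by sample. Across the 95 samples Pearson's r of their log2 CPM was 0.789, and 0.690 for the deviations from the 32 combination means. The samples share libraries, scaling and treatments, so these values are descriptions. Within treatments r was 0.523 with DMSO, 0.147 with CSC, 0.731 with BaP and 0.716 with NNK. The r with log2 counted reads was -0.311 for RPPH1 and -0.198 for RMRP, and the median depth was 1051108 reads with DMSO against 825587 with CSC, 836087.5 with BaP and 753702.5 with NNK. With log2 counted reads as a covariate the log2 fold changes of RPPH1 were 0.99 with CSC, 0.84 with BaP and 0.47 with NNK.

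The proteins that bind these RNAs gave calls in both directions with CSC and with BaP. Of 9 RNase P and RNase MRP proteins tested, 3 rose and 1 fell with CSC, with a median log2 fold change of -0.02. Over all genes 27.2% were higher and 28.4% lower, so the 3 rises are near the background. RPP25, a subunit that binds both RNAs, rose 2.14-fold with CSC (adjusted p = 3.62e-08), and its log2 fold change was 0.96 with BaP and 0.67 with NNK, both past the threshold. POP7, which forms a pair with RPP25 on the RNA, rose by a log2 fold change of 0.65 with CSC, 0.41 with BaP and 0.43 with NNK. RPP38 fell by 0.28 with CSC and by 0.34 with BaP on the log2 scale. With BaP 3 of the 9 rose and 1 fell, and with NNK 2 rose and 0 fell. The shares of all genes lower were 25.1% with BaP and 25.8% with NNK.

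The machinery of RNA polymerase III gave calls in both directions, as genes in general did. Among 11 subunits of the enzyme, 2 rose and 4 fell with CSC, 1 rose and 3 fell with BaP, and 2 rose and 2 fell with NNK. Among 19 initiation factors and regulators the counts were 5 up and 8 down with CSC, 5 up and 9 down with BaP, and 7 up and 6 down with NNK. Over all genes 27.2% were higher and 28.4% lower with CSC, 26.4% and 25.1% with BaP, and 25.9% and 25.8% with NNK. With CSC the subunits stood at 18.2% and 36.4% and the factors at 26.3% and 42.1%. SNAPC4, the largest subunit of the factor that binds promoters of the RPPH1 and RMRP type, rose by 0.44, 0.52 and 0.54 (log2) with CSC, BaP and NNK. Other subunits of that factor went both ways: SNAPC2 rose by 0.61 with CSC and 0.46 with NNK, and SNAPC1 fell by 0.39 and 0.45. MAF1, a repressor of RNA polymerase III, rose by 0.51, 0.55 and 0.53, and BDP1, a TFIIIB subunit, fell by 0.48, 0.43 and 0.36 in the same order. SSB (La), which binds the uridine tail of new RNA polymerase III transcripts, fell by 0.72, 0.58 and 0.59. Of the 3 genes tested on the list that holds SSB, 0 rose and 2 fell with each chemical. These directions are relative to the bulk of genes. With scaling to small nucleolar and Cajal body RNAs, which moves all genes, 0 of the 19 initiation factors and regulators were higher and 16 lower with CSC, 1 and 13 with BaP, and 8 and 1 with NNK. The 11 subunits were then 0 higher and 11 lower with CSC, 0 and 10 with BaP, and 4 and 1 with NNK, and the 9 RNase P and RNase MRP proteins 1 and 6, 1 and 5, and 2 and 0. Over all genes this scaling gave 365 higher and 10852 lower of 14497 with CSC. The counts were 628 and 8050 of 14392 with BaP, and 5914 and 512 of 14387 with NNK. These list counts therefore follow a shift of most genes.

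The protein partners of the RNAs not analysed here were tested in the same fits. Of 7 proteins of the signal recognition particle and its receptor, 0 rose and 5 fell with CSC, 0 rose and 5 fell with BaP, and 0 rose and 6 fell with NNK. SRP9, which binds the Alu end of the RNA, fell by 0.65, 0.41 and 0.50 (log2). The median log2 fold change of the 7 was -0.33, -0.26 and -0.29, against -0.01 with CSC, 0.01 with BaP and 0.00 with NNK over all genes. With the GC and length correction 3 of the 7 rose and 3 fell with CSC, 0 and 1 with BaP, and 1 and 2 with NNK. Over all genes that correction gave 3204 higher and 1690 lower with CSC, 2269 and 1293 with BaP, and 1533 and 916 with NNK. Of 7 genes of the 7SK particle and P-TEFb, 2 rose and 3 fell with CSC, 3 rose and 2 fell with BaP, and 3 rose and 3 fell with NNK. The shares of all genes were 27.2% higher and 28.4% lower with CSC, 26.4% and 25.1% with BaP, and 25.9% and 25.8% with NNK. LARP7, which protects the end of RN7SK, fell by 0.79, 0.39 and 0.49, and CDK9, the kinase of P-TEFb, rose by 0.22, 0.27 and 0.36. With scaling to small nucleolar and Cajal body RNAs the 7SK list had 0 genes higher and 7 lower with CSC, 0 and 4 with BaP, and 3 and 1 with NNK. Over all genes that scaling gave 365 higher and 10852 lower with CSC, 628 and 8050 with BaP, and 5914 and 512 with NNK.

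Among other small structured RNAs, calls were mostly higher with CSC and with BaP and mostly lower with NNK. Of 222 small nucleolar and Cajal body RNAs tested, which guide the modification of ribosomal and small nuclear RNA, 110 rose and 3 fell with CSC (median log2 fold change 0.46). Of 220, 63 rose and 3 fell with BaP (median 0.26), and of 213, 8 rose and 63 fell with NNK (median -0.27). Among all genes 27.2% were higher and 28.4% lower with CSC, 26.4% and 25.1% with BaP, and 25.9% and 25.8% with NNK. With the GC and length correction, 47 rose and 6 fell of 175 with CSC, 32 rose and 3 fell of 175 with BaP, and 11 rose and 13 fell of 169 with NNK, where the median turned to 0.05. The shares of all genes just given are without this correction. With it, 3204 genes were higher and 1690 lower with CSC, 2269 and 1293 with BaP, and 1533 and 916 with NNK. Rises therefore outnumbered falls over all genes too. SNORD68 rose by 1.72 with CSC and SNORD41 fell by 1.46 with NNK. All 4 Y and vault RNAs tested, which are also made by RNA polymerase III, rose with CSC, VTRNA1-1 by 1.27. With BaP 0 of the 4 passed, and with NNK 0 rose and 2 fell, VTRNA1-1 by 0.59. Of the small nuclear RNAs tested, which work in splicing and related steps, 3 of 5 rose with CSC and 3 of 4 with BaP, and with NNK 1 of 4 rose and 2 fell. Of 6 other structured or nuclear noncoding RNAs, 3 rose and 2 fell with CSC and with BaP, and 3 rose and 1 fell with NNK. TERC, the telomerase RNA, rose by 0.96, 0.88 and 0.59, and RN7SL3 by 0.50, 0.45 and 0.16. RN7SL3 shares sequence with RN7SL1 and RN7SL2, so how its reads were assigned is uncertain. Many small nucleolar RNA genes lie in introns of other genes, and the strand setting of the counting is not given in the sources used here, so reads of the host gene cannot be told apart from theirs. With NNK values scaled to the small nucleolar and Cajal body RNAs, the log2 fold changes of RPPH1 and RMRP were 0.68 and 0.40. The median of all genes was then 0.21 (5914 genes higher and 512 lower, against 3729 and 3709), and relative to it the values were 0.47 and 0.19.

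**Figure D4:**
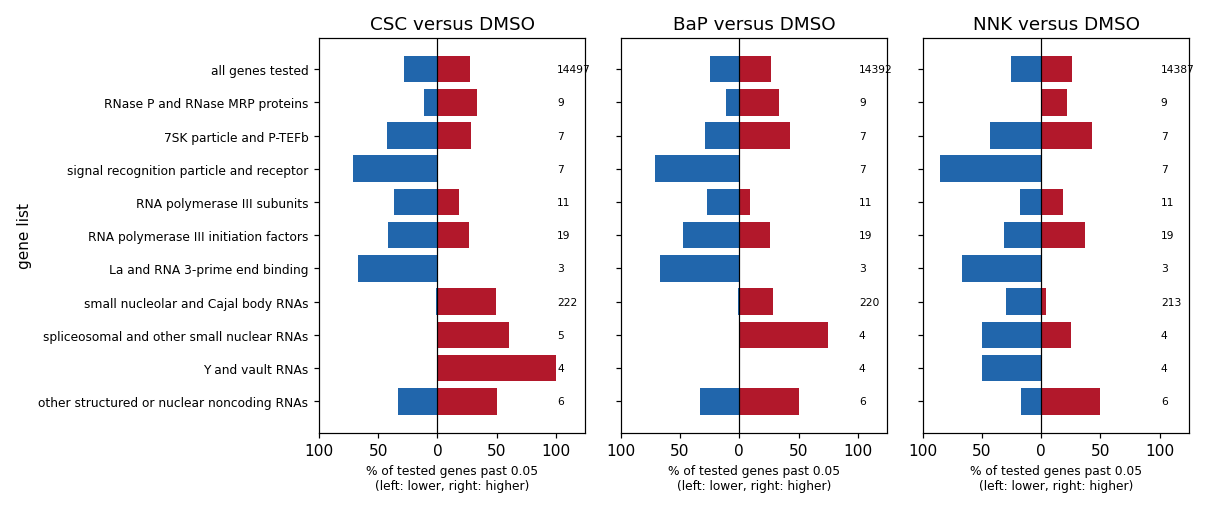
Share of the tested genes of each list called higher (right, red) or lower (left, blue) against DMSO at an adjusted p of 0.05, with the number tested at the right edge. The small nucleolar and Cajal body RNAs lie to the right with CSC (110 of 222) and to the left with NNK (63 of 213). With the GC and length correction the NNK calls are near even, 11 higher and 13 lower of 169. Over all genes that fit gave 1533 higher and 916 lower.

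Among genotypes the largest difference was that of RPPH1 in CDKN2A knockout cells. Over all treatments RPPH1 ranged from 1596 to 4682 CPM in CDKN2A cells (median 2819) and from 2306 to 5907 CPM in GFP cells (median 4939). It fell by 0.64 on the log2 scale (SE 0.06, adjusted p = 6.63e-16, limma-voom with chemical as a covariate), in a comparison that called 57.6% of all genes, 29.4% higher. Fitted within each treatment, the log2 fold change was -0.58 (SE 0.04) with DMSO, -0.56 (SE 0.04) with CSC, -0.23 (SE 0.04) with BaP and -1.33 (SE 0.03) with NNK, so all 4 values had the same sign. These fits of 3 against 3 samples draw on the variance of all genes. With NNK the SD of RPPH1 log2 CPM was 0.17 in CDKN2A cells and 0.10 in GFP cells, so the SE of 0.03 is small beside that spread. RMRP fell by 0.15 over all treatments (SE 0.06, adjusted p = 0.0268). Within treatments it passed with NNK alone, where it fell by 0.70 (SE 0.06, adjusted p = 4.86e-20), and it was at -0.13 (SE 0.06) with DMSO, -0.05 (SE 0.05) with CSC and 0.07 (SE 0.08) with BaP. Without replicate 3 the RMRP value was -0.04 (adjusted p = 0.612), and it was not past the threshold in DESeq2 (adjusted p = 0.175).

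In FAT1 knockout cells RMRP passed the test against GFP cells and RPPH1 did not, and the difference between the RNAs was not tested. RMRP rose by 0.28 (SE 0.05, adjusted p = 4.37e-07), where 48.9% of genes were called and 25% were higher, and RPPH1 had a log2 fold change of 0.03 (95% CI -0.04 to 0.11, adjusted p = 0.512). Within treatments these values differed in sign: RPPH1 was at 0.32 (SE 0.04) with BaP and at -0.41 (SE 0.03) with NNK, and RMRP at 0.45 (SE 0.06) and -0.17 (SE 0.05). The RMRP call was lost with the GC and length correction (log2 fold change -0.01) and in DESeq2 (adjusted p = 0.0644).

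Overexpression gave small differences from HCRED cells. RPPH1 rose by 0.15 in NRF2 cells (SE 0.04, adjusted p = 0.00191), where 21.6% of genes were called and 10.4% were higher, and RMRP had a log2 fold change of 0.11 there (adjusted p = 0.0835). The RPPH1 call was lost without replicate 2 (adjusted p = 0.0674) and in edgeR (adjusted p = 0.118). RPPH1 rose by 0.20 in FGFR1 cells (SE 0.05, adjusted p = 0.000818), where 13.5% of genes were called and 7.25% were higher, and RMRP was at -0.08 (adjusted p = 0.464). Without replicate 2 the RPPH1 value was 0.15 (adjusted p = 0.0661).

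In NRG1 cells RMRP rose by 0.26 (SE 0.08, adjusted p = 0.0186), where 10.8% of genes were called and 5.86% were higher, and RPPH1 was at 0.07 (adjusted p = 0.621). That value averages estimates of opposite sign. Within treatments RPPH1 was at 0.55 (SE 0.12, adjusted p = 0.00797, limma-voom) with BaP and at -0.49 (SE 0.05, adjusted p = 6.66e-13) with NNK. It was near 0 with DMSO and with CSC. The BaP samples overlapped, at 4304, 8354 and 7871 CPM in NRG1 cells against 4209, 3747 and 6356 CPM in HCRED cells. The NNK samples did not, at 2592 to 3265 CPM in NRG1 cells and 3681 to 5204 CPM in HCRED cells. The share of all genes whose samples separate in this comparison was not computed, so that separation has no background. Without replicate 2 the RMRP value was 0.16 (adjusted p = 0.240) and without replicate 3 it was 0.12 (adjusted p = 0.435). Within treatments RMRP was at 0.23 (SE 0.06) with DMSO, 0.38 (SE 0.05) with CSC, 0.42 (SE 0.14) with BaP and -0.29 (SE 0.08) with NNK. In PIK3CA cells neither RNA passed, where 27.8% of genes were called and 14% were higher. RPPH1 was at 0.01 (95% CI -0.08 to 0.10, adjusted p = 0.899) and RMRP at 0.03 (95% CI -0.08 to 0.14, adjusted p = 0.728), although RMRP passed without replicate 1, at 0.17 (adjusted p = 0.00391), and without replicate 2, at -0.15 (adjusted p = 0.0154). The 2 knockouts share the GFP samples and the 4 overexpression lines share the HCRED samples.

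**Figure D5:**
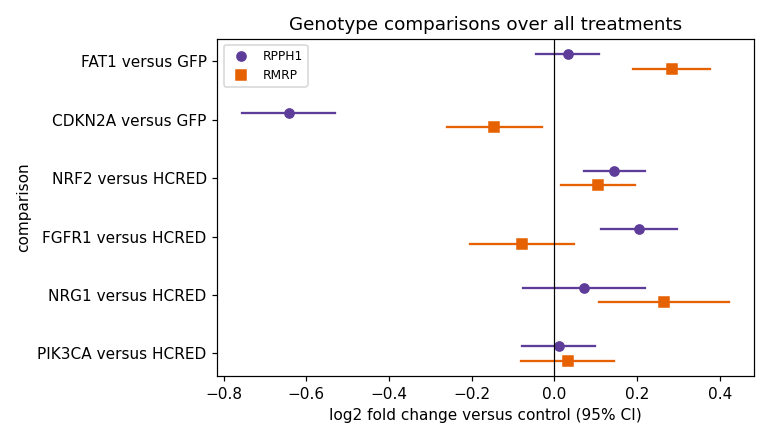
Log2 fold change of RPPH1 (circles) and RMRP (squares) between each line and its control over all treatments, with 95% confidence intervals. RPPH1 in CDKN2A knockout cells, at -0.64, lies farthest from 0, and the other values lie between -0.15 and 0.28.

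Ordered over the 32 combinations of genotype and treatment, the mean log2 CPM of RPPH1 spanned 1.94 and that of RMRP 1.89. The highest RPPH1 mean was that of NRG1 cells with BaP (12.68, SD 0.53, n = 3), followed by FAT1 cells with BaP (12.64, SD 0.20, n = 3) and FGFR1 cells with CSC (12.59, SD 0.08, n = 2). The lowest were CDKN2A cells with NNK (10.96, SD 0.17, n = 3) and with DMSO (10.74, SD 0.09, n = 3). The step between neighbours in this order exceeded their pooled SD at 5 of 31 places for RPPH1 and at 1 of 31 for RMRP. Sorting 32 means over such a span makes most steps small by construction. These counts therefore say only that the order of neighbours is mostly not resolved.

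The genes whose log2 CPM followed the RNAs most closely over the 95 samples were, for RPPH1, SECTM1 (Pearson's r 0.875), TKT (0.842), the transketolase of the pentose phosphate pathway, and HIST1H4E (0.807), a histone H4 gene. For RMRP they were SCARNA2 (0.847), a Cajal body RNA, SNORD33 (0.795) and RPPH1 (0.789). After subtraction of the combination means, r was 0.464 for RPPH1 with SECTM1 and 0.564 for RMRP with SCARNA2, so part of each likeness lay between the combinations. These samples share treatments and scaling, and SECTM1 averaged 39.4 and SNORD33 21.0 reads.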

How the data were processed

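Total RNA of AALE cells was profiled by SFL sequencing, and barcoded libraries were pooled for single-end sequencing. The authors trimmed reads with cutadapt 1.12, aligned them to hg19 with STAR 2.5.2b and counted them in RefSeq genes with featureCounts. The deposited values are raw counts per gene symbol, 1 file for each of 95 samples. Strand and multi-mapping settings are not given in the sources used here. Groups and doses were taken from the labels. The members and gene lists were chosen with earlier results of these data known.

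Genes averaging more than 1 read per fitted sample were kept, scaled by TMM in edgeR 4.0.16 and tested with voom in limma 3.58.1 (R 4.3.3), as genotype plus chemical over the samples of a comparison, with an F test for the interaction. All p-values are two-sided and were adjusted by Benjamini-Hochberg over all genes tested at a threshold of 0.05. Log2 CPM used a prior count of 2. Likeness was Pearson's r over genes averaging 10 or more reads. The genes named are the list members, the 3 genes most like each and, per list and chemical, those among the 3 largest rises and falls past the threshold. PARP2, CCDC107 and AHNAK were named after their values were seen, for position or rank. The fits were tested on simulated data. Replicate libraries differed by more than sampling noise (chi-square per degree of freedom 1.12 to 2.87 over 94 pairs), so none was merged. Alternatives were edgeR, DESeq2 1.42.0, other scalings, filters and covariates, and leaving out replicates, genotypes or treatments. The GC and length correction used GENCODE transcripts, matched for 86.9% of symbols. It has no value for RPPH1, so as a check over both members it is void, and RMRP values are given alone. A count of 0 allows up to 3 reads, or 1.42 to 10.4 CPM at these depths, for counting error only.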

Additional observations from a re-analysis of the deposited data

Results flagged for a closer look

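The difference between BaP and DMSO samples was unequal among the 8 genotypes for RPPH1 (limma-voom interaction, adjusted p = 0.0346). The fold ran from 1.54 in HCRED cells to 2.44 in CDKN2A knockout cells, with every genotype higher with BaP. Leaving out each replicate number in turn gave adjusted p-values from 6.94e-10 to 0.571.

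The difference between NNK and DMSO samples was likewise unequal among genotypes for RPPH1 (limma-voom interaction, adjusted p = 0.000218), with folds from 1.06 in NRG1 cells to 1.89 in GFP cells. Leaving out each replicate number in turn gave adjusted p-values from 1.62e-10 to 0.000360. The cause of either pattern was not tested.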

How the results depend on the processing

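The 2 RNAs measured stayed past an adjusted p of 0.05 and higher than DMSO with CSC and with BaP under each alternative that could be fitted, with log2 fold changes of 0.38 to 1.03 (RPPH1) and 0.71 to 1.43 (RMRP) for CSC and of 0.56 to 0.97 and 0.20 to 0.84 for BaP. For NNK the values were 0.42 to 0.68 for RPPH1 and -0.09 to 0.40 for RMRP, and 1 of the 2 RNAs passed in a fit of all 95 samples. Where a call or sign changed, the cause was not tested.

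The number of RNAs past the threshold changed as follows. In the NNK interaction 2 passed in edgeR's F test. Leaving out a replicate number gave 0 to 2 for the BaP interaction and 1 to 2 for NNK. For the CSC interaction no such count is given, since FGFR1 cells with CSC could be left unreplicated. For FAT1, 0 passed in DESeq2 and 2 in the DMSO, BaP or NNK samples alone. For CDKN2A, 1 passed in DESeq2, with DESeq2 size factors, with library size alone, with no filter, in the fit of 95 samples, in the DMSO, CSC or BaP samples alone and without libraries under 500000 reads, and 1 to 2 without a replicate. For NRF2, 0 passed in edgeR, DESeq2, the fit of 95 samples, the CSC or NNK samples alone, with the depth covariate and with scaling to small nucleolar RNAs, 2 with library size alone and without libraries under 500000 reads, and 0 to 2 without a replicate. For FGFR1, 0 passed in DESeq2 and in the CSC samples alone, and 0 to 1 without a replicate. For NRG1, 0 passed in DESeq2, with no filter, in the fit of 95 samples, with the depth covariate and with scaling to small nucleolar RNAs, 2 in the NNK samples alone, and 0 to 1 without a replicate. For PIK3CA, 0 to 1 passed without a replicate.

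Signs turned as follows, in part for values near 0 and in part, with NNK alone in FAT1 and NRG1 cells, for larger values. Among the latter, the RMRP samples with NNK overlapped between NRG1 cells (704 to 1116.5 CPM) and HCRED cells (1027 to 1222 CPM). For FAT1, RPPH1 was at -0.012 with CSC alone, -0.41 with NNK alone, -4.54e-05 without libraries under 500000 reads and -0.038 to 0.062 without a replicate, and RMRP at -0.17 with NNK alone and -0.0099 with the GC and length correction. For CDKN2A, RMRP was at 0.068 with BaP alone. For NRF2, RPPH1 was at -0.024 with CSC alone and RMRP at -0.015 with BaP alone. For FGFR1, RMRP was at 0.10 with DMSO alone, 0.0045 with the correction, 0.000171 with scaling to small nucleolar RNAs and -0.11 to 0.0018 without a replicate. For NRG1, RPPH1 was at -0.0058 in DESeq2, -0.0041 with CSC alone, -0.49 with NNK alone, -0.086 with scaling to small nucleolar RNAs and -0.055 to 0.15 without a replicate, and RMRP at -0.29 with NNK alone. For PIK3CA, RPPH1 was at -0.040 in edgeR, -0.047 in DESeq2, -0.0063 with library size alone, -0.0030 with a mean count of at least 10, -0.0087 with DMSO alone, -0.039 with BaP alone and -0.050 to 0.078 without a replicate, and RMRP at -0.0070 in DESeq2, -0.17 with BaP alone and -0.15 to 0.17 without a replicate. RMRP with NNK was at -0.094 with the correction.

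The samples were not treated as paired by the replicate numbers of the labels, since same-numbered samples did not all correlate: the mean correlation of their deviations was 0.00023 to 0.030 over the 9 comparisons, with single values from -0.26. As a hint from the data towards a shared factor, that mean was above the one of different numbers in each of the 9, and 59 of 95 samples correlated best with their own number, more than an even split over 3 numbers would give. With the replicate number as a block, 2 RNAs passed for NRF2, RMRP at 0.09 (adjusted p = 0.0315), and the count of RNAs passed was unchanged in the other comparisons.

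The GC and length correction called 4894 genes for CSC, 3562 for BaP and 2449 for NNK, where the fits without it called 8061, 7402 and 7438, and no filter called 11531 for NNK. The BaP interaction called 61 genes in edgeR against 36. Scaling to small nucleolar RNAs called 2030 genes for NRF2, 970 for FGFR1 and 585 for NRG1, against 3081, 1934 and 1530. It changed the split of higher and lower calls to 690 and 280 for FGFR1 (1040 and 894 with TMM), 132 and 453 for NRG1 (832 and 698) and 2290 and 540 for PIK3CA (2008 and 1988), where the median of all genes was 0.14. The GC and length correction gave 3204 higher and 1690 lower genes for CSC, 2269 and 1293 for BaP, and 1533 and 916 for NNK. Without a replicate the interactions called 16 to 31 genes for BaP (36 with all) and 12 to 40 for NNK (25 with all). No such count is given for CSC (185 with all), where FGFR1 cells could be left unreplicated. Genotype comparisons in 1 treatment alone called 201 to 5408 genes. Scaling to small nucleolar RNAs and TMM without the members were chosen after seeing the data. After subtraction of combination means, r fell to 0.464 for RPPH1 with SECTM1 and 0.564 for RMRP with SCARNA2.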

Other observations

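Other noncoding RNAs of the fixed lists stood higher in CDKN2A knockout cells than in GFP cells, where RPPH1 stood lower. RN7SL3 rose by 3.60 (SE 0.11), TERC by 2.16 (SE 0.10) and NEAT1, the scaffold RNA of paraspeckles, by 1.65 (SE 0.05) on the log2 scale over all treatments, each past an adjusted p of 0.05 in limma-voom. Of 11 RNA polymerase III subunits, 5 rose and 2 fell in these cells, among them CRCP, which fell by 0.66. Of 212 small nucleolar and Cajal body RNAs 36 rose and 30 fell. Over all genes 29.4% were higher and 28.3% lower.

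In FAT1 knockout cells RN7SL3 rose by 1.0 (SE 0.12) and TERC fell by 0.54 (SE 0.11), and 7 of 11 RNA polymerase III subunits rose while 1 fell, where 25% of all genes were higher and 23.9% lower. In the 4 overexpression lines 0 to 3 of these 11 subunits rose and 0 to 1 fell against HCRED cells.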
